A study of Mus musculus with 2 samples.

Results

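The genes described here are 10 astrocyte genes, 6 that mark the identity of the cell (*Aqp4*, *Slc1a2*, *Slc1a3*, *Aldh1l1*, *Glul* and *Fabp7*) and 4 that are linked to its reactive state (*Gfap*, *Vim*, *Serpina3n* and *Lcn2*). They were chosen by name, and all 10 were found among the 23951 gene symbols shared by both libraries. RNA-seq was performed on optic nerves at P12 from control mice (Tcf7l2 c/+; OLig1-cre), with 1 floxed *Tcf7l2* allele, and from *Tcf7l2*ΔHMG mice (Tcf7l2 c/c; OLig1-cre), in which the allele was floxed on both chromosomes. Both genotypes therefore carried *Olig1*-Cre, which is expressed in the oligodendrocyte (OL) lineage and excises the exon for the DNA-binding HMG box of Tcf7l2. There was 1 library per genotype, the study used mice of both sexes on a mixed background, and the sex and number of the animals in each library are not given in the sources used here.

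Astrocytes take up the glutamate and potassium released by active axons, supply metabolites and cover blood vessels with endfeet. In the optic nerve they lie between the axons together with OLs, OL precursors (OPCs) and microglia, while the cell bodies of the neurons lie in the retina. After injury or inflammation astrocytes become reactive, with more of the intermediate filament proteins Gfap and vimentin and, in many settings, more of the secreted proteins Serpina3n and lipocalin-2. *Gfap* and *Vim* are also abundant in astrocytes of healthy white matter, *Vim* and *Fabp7* are used by immature glia, and *Vim*, *Serpina3n*, *Glul* and *Lcn2* are used by other cell types too. In whole optic nerve, fewer cells of a type and less RNA per cell cannot be told apart.

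Expression is given as FPKM, the number of fragments normalized to transcript length and to mapped fragments. Depth, read from the steps in the interval bounds of short unnamed rows, was 27624000 fragments in control nerve and 39938000 in mutant nerve, so that 3 fragments on 1 kb were worth 0.11 and 0.075 FPKM. Log2 ratios compare mutant with control after 0.1 FPKM was added to each value, a scale that understates the change of low genes, and 14199 symbols that reached 1 FPKM in either library were compared. Their median log2 ratio was 0.05. A fold change above 1.5 was exceeded by 15.4% of them in the upward direction and by 8.52% in the downward direction. With 1 library per genotype no difference has a replicate check, no test was run, and the Cufflinks interval of each value covers counting within 1 library, not the spread between animals. *Tcf7l2* itself was measured at 17.8 FPKM in control nerve and 14.6 in mutant nerve, but the excision is in frame, so the level of the whole gene does not check the genotype.

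Astrocyte markers other than the members were present in both libraries. *Gja1*, *Sox9*, *S100b*, *Aldoc* and *Ntsr2* lay between 16.3 FPKM, for *Sox9*, and 347.3 FPKM, for *S100b*, in the control, and between 20.7 and 401.5 FPKM for the same genes in the mutant.

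The members with the largest ratios were *Lcn2* and *Glul*, and *Slc1a2* was the only member searched whose upstream window held the core letters of a TCF site. The 250 bases before the RefSeq start of these 3 genes are therefore shown (GRCm38.p6). Of the 10 members, 9 had a window that was searched, and *Aqp4* was not searched. The letters searched on both strands were CTTTGA or TCAAAG, the core bound by TCF factors, which also overlaps sites of Sox factors, and TTCNNNGAA, the site of STAT factors. The window of *Slc1a2* lies at chr2:102706188-102706437 on the plus strand, inside the gene at a start listed by RefSeq, and the capitals mark its 2 matches to the TCF core. The windows of *Glul* (chr1:153899679-153899928, plus strand) and *Lcn2* (chr2:32387740-32387989, minus strand) held neither motif and have no capitals.
*Slc1a2*: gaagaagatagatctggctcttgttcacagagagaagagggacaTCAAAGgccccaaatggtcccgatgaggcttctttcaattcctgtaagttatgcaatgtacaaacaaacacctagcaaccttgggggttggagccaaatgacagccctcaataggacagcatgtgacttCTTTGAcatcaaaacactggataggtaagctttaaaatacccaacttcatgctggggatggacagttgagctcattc
*Glul*: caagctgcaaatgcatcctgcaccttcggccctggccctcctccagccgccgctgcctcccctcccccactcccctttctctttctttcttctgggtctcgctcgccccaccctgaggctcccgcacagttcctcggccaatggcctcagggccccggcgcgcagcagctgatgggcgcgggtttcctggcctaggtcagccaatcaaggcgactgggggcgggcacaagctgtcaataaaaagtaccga
*Lcn2*: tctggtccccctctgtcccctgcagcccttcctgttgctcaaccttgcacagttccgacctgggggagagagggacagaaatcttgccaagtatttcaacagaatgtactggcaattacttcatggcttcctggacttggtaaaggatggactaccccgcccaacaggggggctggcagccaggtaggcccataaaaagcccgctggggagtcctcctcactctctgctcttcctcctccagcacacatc

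Of all 32851 upstream windows of this length, 13.8% held the TCF core and 7.02% the STAT site. Among the 9 members searched the STAT site was found in 1 window, that of *Slc1a3*. These matches describe the letters only, since binding of Tcf7l2 was not measured in these libraries.

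Levels of the 10 genes differed widely, and their order was nearly the same in both libraries. In the control the order from high to low was *Gfap*, *Vim*, *Slc1a3*, *Glul*, the row holding *Serpina3n*, *Fabp7*, *Aqp4*, *Aldh1l1*, *Slc1a2* and *Lcn2*. In the mutant *Glul* stood above *Slc1a3*, and no other pair changed places. Neighbours in this order had intervals that did not overlap in the control. In the mutant the intervals of *Slc1a3* and the *Serpina3n* row overlapped. Those of *Fabp7* (129.2 to 140.4) and *Aqp4* (147.9 to 153.0) did not overlap. By interval *Aqp4* stood above *Fabp7* in the mutant, the reverse of their order by FPKM. Among all compared genes, *Gfap* ranked number 5 in the control and number 3 in the mutant.

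**Figure D1:**
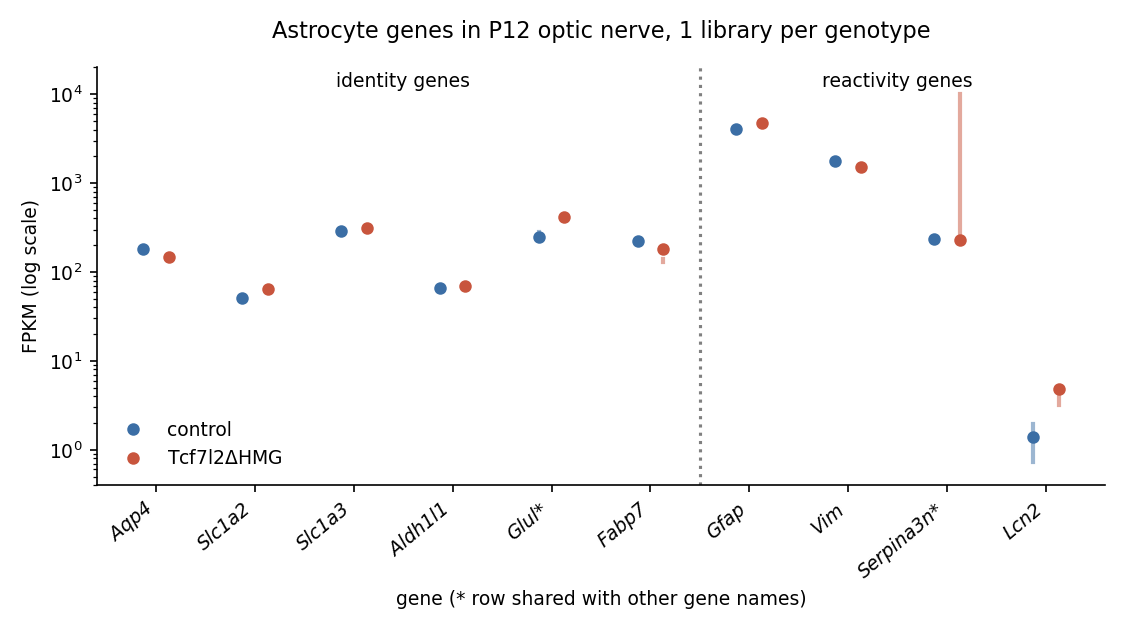
FPKM of the 6 identity genes and 4 reactivity genes in the control library (blue points) and the *Tcf7l2*ΔHMG library (red points), on a log axis, with vertical bars for the Cufflinks interval of each value. *Gfap* and *Vim* lie at 1533 FPKM or higher in both libraries and *Lcn2* at 4.86 or lower, and the mutant bar of the *Serpina3n* row runs to 9955 FPKM.

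Of the glutamate transporters, *Slc1a3* was close to the control level and *Slc1a2* was higher but within a fold of 1.5. The enzyme downstream of them was higher past that fold. *Slc1a3* encodes GLAST, the glutamate transporter that predominates in immature astrocytes, and was measured at 288.4 FPKM in control nerve and 309.6 in mutant nerve (log2 ratio 0.10, intervals 288.0 to 296.9 and 310.6 to 318.4). *Slc1a2* encodes GLT-1, the main glutamate transporter of mature astrocytes. It was measured at 50.6 FPKM in control nerve and 63.6 in mutant nerve, 1.26-fold higher (log2 ratio 0.33, intervals 50.2 to 52.3 and 63.2 to 65.5). *Glul* encodes glutamine synthetase, which turns the glutamate taken up into glutamine. It was measured at 249.4 FPKM in control nerve and 417.2 in mutant nerve, 1.67-fold higher (log2 ratio 0.74), with intervals of 247.5 to 281.4 and 418.5 to 429.3. *Glul* was the only identity gene past a fold of 1.5, a fold exceeded upward by 15.4% of all genes compared, and 89.0% of those genes had a lower ratio. Its row also carries the name of a microRNA, *Mir8114*, so the level is that of the joint row.

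The ratio of 2 genes within a library does not depend on how the libraries were scaled. *Glul* over *Slc1a3* was 0.86 in control nerve and 1.35 in mutant nerve, a change of 1.56-fold. *Glul* over *Aqp4* went from 1.37 to 2.81, a change of 2.05-fold. The balance of the transporters moved less, with *Slc1a3* over *Slc1a2* at 5.70 in control nerve and 4.87 in mutant nerve.

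*Aqp4*, the water channel of astrocyte endfeet, was lower in the mutant, at 181.7 FPKM in control nerve and 148.5 in mutant nerve (log2 ratio −0.29, 1.22-fold lower). *Aldh1l1*, a folate enzyme used as a marker of most astrocytes, was nearly level, at 65.5 FPKM in control nerve and 69.4 in mutant nerve (log2 ratio 0.08), with overlapping intervals of 63.8 to 68.3 and 68.1 to 72.2. A difference in *Aldh1l1* was thus not detectable within counting error.

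*Fabp7*, a fatty acid binding protein of radial glia and immature astrocytes that OPCs also use, was measured at 220.3 FPKM in control nerve and 181.0 in mutant nerve (log2 ratio −0.28). The mutant value is uncertain, because it lies above its own interval of 129.2 to 140.4. With the midpoint of each interval in place of the FPKM, an alternative chosen after seeing the data, *Fabp7* was at 222.1 in control nerve and 134.8 in mutant nerve and the log2 ratio was −0.72, past a fold of 1.5. The direction was the same on both readings, and the size was not.

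Of the reactivity genes, the filament genes did not move together. *Gfap*, the main intermediate filament of astrocytes, was measured at 4059 FPKM in control nerve and 4729 in mutant nerve (log2 ratio 0.22, 1.17-fold higher). *Vim*, the filament protein that Gfap joins in immature and reactive astrocytes and that endothelial cells, fibroblasts and microglia also make, was measured at 1762 FPKM in control nerve and 1533 in mutant nerve (log2 ratio −0.20, 1.15-fold lower). Both stayed within a fold of 1.5. *Gfap* over *Vim* was 2.30 in control nerve and 3.09 in mutant nerve, a change of 1.34-fold. The FPKM of both genes lay below their own intervals in both libraries, which were 4112 to 4155 and 4799 to 4837 for *Gfap*.

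*Serpina3n* encodes a secreted inhibitor of serine proteases and is a marker of reactive astrocytes. It had no value of its own, since its row joins it with 6 other *Serpina3* names in control nerve and 7 in mutant nerve, over a cluster on chromosome 12 from 105452754 to 105652539 (mm9). This joint row was measured at 237.9 FPKM in control nerve and 229.0 in mutant nerve (log2 ratio −0.05). The interval was 235.0 to 246.5 in the control but 227.4 to 9955 in the mutant, so the row sets no useful limit on a rise, and how much of it is *Serpina3n* cannot be read from it. *Serpina3c*, which has its own row, was measured at 3.09 FPKM in control nerve and 3.70 in mutant nerve, with overlapping intervals.

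*Lcn2* encodes lipocalin-2, a secreted protein that binds iron-carrying siderophores and is made by reactive astrocytes, endothelium and neutrophils. It was measured at 1.39 FPKM in the control (interval 0.72 to 1.95) and 4.86 in the mutant (interval 3.17 to 4.96), which is 3.49-fold higher (log2 ratio 1.73). It was the only reactivity gene past a fold of 1.5, and 97.2% of the genes compared had a lower ratio. Its level was the lowest of the 10 genes in both libraries. Because neutrophils carry *Lcn2* in their granules, 9 neutrophil markers were read beside it, of which 8 were in the files. The sum of these markers was 1.71 FPKM in control nerve and 11.1 in mutant nerve, and *Mpo*, *Elane* and *Retnlg* were listed at 0 in the control. *S100a9*, the most abundant of them in the mutant, was at 0.23 and 4.42 FPKM, and *Ngp*, a granule gene, at 0.15 and 1.41. Both reached 1 FPKM in mutant nerve alone, so they passed the filter on low values through the library in which they were high, and no count past the fold is given for this list. Genes of red blood cells were also higher, with their summed rows at 163.0 FPKM in control nerve and 403.2 in mutant nerve. The part of blood cells in the *Lcn2* value was not tested.

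Across the 10 genes, 6 were higher in the mutant, beside 54.6% of all genes, and 4 were lower, and 2 were past a fold of 1.5, beside 23.9% of all genes compared in either direction. Intervals were apart in 8 of the 10 (52.4% of all genes), with the mutant higher in 5 (30% of all genes) and lower in 3 (22.4%). A value outside its own interval in 1 or both libraries was seen for 5 of the 10 (*Slc1a3*, *Glul*, *Fabp7*, *Gfap* and *Vim*), beside 14.8% of all genes, so intervals that are apart count for little here.

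**Figure D2:**
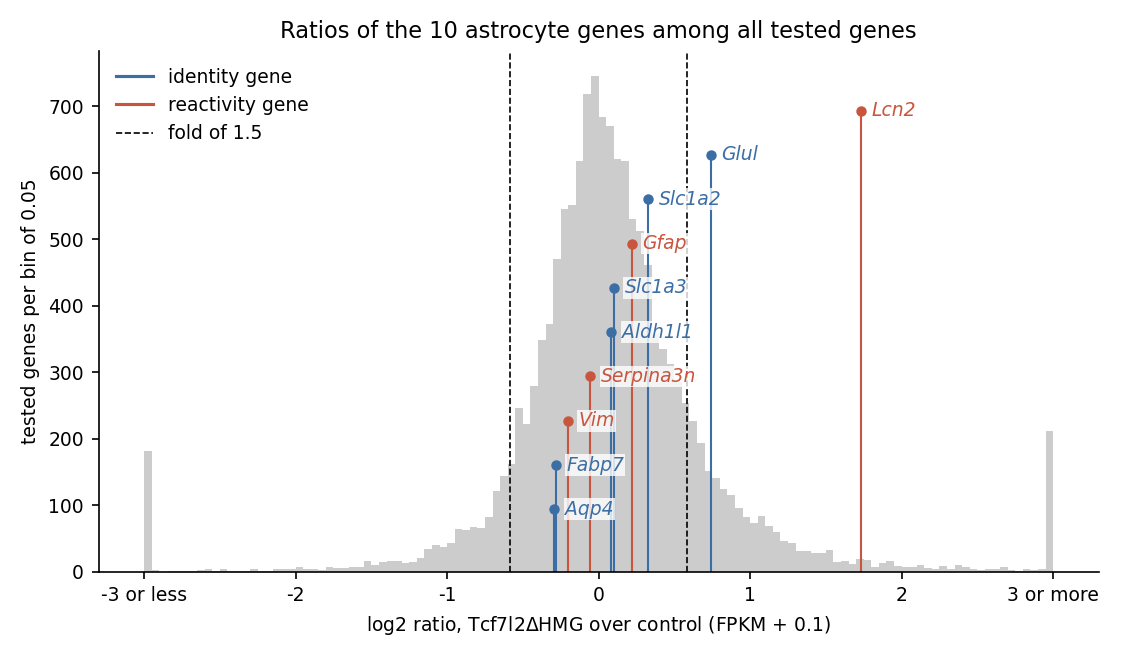
Log2 ratio of *Tcf7l2*ΔHMG over control FPKM (plus 0.1) for the 6 identity genes (blue) and 4 reactivity genes (red), drawn over the histogram of all 14199 genes compared, with dashed lines at a fold of 1.5 and values past 3 collected in the end bins. The 8 other members lie between the dashed lines, *Glul* lies just past the upper line at 0.74, and *Lcn2* stands apart at 1.73.

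Identity genes and reactivity genes did not separate as groups. The median log2 ratio was 0.09 over the 6 identity genes, with a range from −0.29 to 0.74, and 0.08 over the 4 reactivity genes, with a range from −0.20 to 1.73. The difference of the medians, reactivity minus identity, was −0.01, and both medians lay near the 0.05 of all genes compared. Each group held 1 gene past a fold of 1.5, beside 23.9% of all genes in either direction. Summed over rows, identity genes were at 1056 FPKM in control nerve and 1189 in mutant nerve, and reactivity genes, mostly *Gfap* and *Vim*, at 6060 and 6496. The small difference depended on single genes. Without *Lcn2*, as when genes had to reach 5 FPKM, the reactivity median was −0.05, and without the merged rows of *Glul* and *Serpina3n* it was 0.22 beside 0.08 for identity genes.

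Further astrocyte genes were taken from lists written down with earlier results of these data known. Of 60 such genes compared, 19 were past a fold of 1.5 upward (31.7%, beside 15.4% of all genes). A further 4 were past it downward, beside 8.52% of all genes, and the median log2 ratio of the 60 was 0.41. Among 24 general identity genes 11 were past that fold upward and 0 downward, with a median of 0.57. Some of these 24 genes, including some of the 11, had an FPKM outside its own interval in 1 or both libraries. The highest ratios in this group were those of *Slc6a11*, the GABA transporter GAT-3, at 12.96 FPKM in control nerve and 32.01 in mutant nerve (log2 ratio 1.30), and of *Cldn10*, a claudin, at 1.76 and 4.25 FPKM (log2 ratio 1.23). *F3*, the coagulation factor receptor that astrocytes carry, was at 15.4 and 34.8 FPKM (log2 ratio 1.17). The lowest were *Pla2g7*, at 46.9 FPKM in control nerve and 40.8 in mutant nerve, and *Gpr37l1*, an astrocyte receptor, at 184.9 and 175.7. Genes named in the lists below also had an FPKM outside its own interval, among them *Gja1*, *Cd9*, *Hspb1*, *Cxcl10*, *H2-T23* and *S100a10*. *Gja1*, for example, was at 381.1 FPKM in the mutant beside an interval of 353.3 to 361.7. The size of such ratios is uncertain, as it is for *Fabp7*.

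Water, ion and endfoot genes had a median log2 ratio of 0.47 over 15 genes. Past a fold of 1.5 were 4 upward and 1 downward, beside 15.4% and 8.52% of all genes. Those past it upward included the astrocyte connexins *Gjb6*, at 49.3 FPKM in control nerve and 89.3 in mutant nerve (log2 ratio 0.86), and *Gja1*, at 237.2 and 381.1 (log2 ratio 0.68). *Kcnj10*, the potassium channel Kir4.1, was level at 112.0 and 110.9 FPKM. *Dmd*, which encodes dystrophin of the complex that anchors Aqp4 at endfeet, was lower, at 7.44 FPKM in control nerve and 2.68 in mutant nerve (log2 ratio −1.44).

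Of 10 further genes of glutamate handling, 2 were past a fold of 1.5 downward, beside 8.52% of all genes. The lowest ratio was that of *Slc38a5*, a glutamine transporter, at 14.3 and 7.87 FPKM (log2 ratio −0.85). *Slc7a10* was listed at 0 in the control and at 4.95 FPKM in the mutant, which gives no fold, and it counts among the 19 above only through the added 0.1 FPKM. The list median was 0.04.

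Astrocyte transcription factors had a median of 0.34 over 11 genes. Past the fold were 3 upward and 1 downward, beside 15.4% and 8.52% of all genes. *Nfix*, a nuclear factor I gene of glial differentiation, was at 26.4 and 44.4 FPKM (log2 ratio 0.74), and *Zbtb20* at 1.24 and 7.39 FPKM (log2 ratio 2.49). *Hes5*, a Notch target, was at 3.75 and 2.13 FPKM (log2 ratio −0.79), with overlapping intervals. *Sox2* was level at 45.3 and 45.1 FPKM.

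Genes of immature glia, beside *Fabp7* and *Vim*, had a median of 0.25 over 12 genes. In each direction 1 was past the fold, beside 15.4% of all genes upward and 8.52% downward. *Hopx* was just past it, at 32.9 and 49.4 FPKM (log2 ratio 0.59). *Cd9*, a tetraspanin that OLs also use strongly, was at 612.9 and 307.7 FPKM (log2 ratio −0.99). Genes of the intermediate filament network, nuclear lamins and neuronal filaments among them, had a median of 0.19 over 10 genes. Past the fold were 3 upward and 1 downward, beside 15.4% and 8.52% of all genes. Upward were the neuronal filament gene *Ina*, at 4.94 and 8.63 FPKM, *Plec*, which encodes the linker plectin, at 22.5 and 38.4 FPKM (log2 ratio 0.77), and *Synm*, which encodes synemin, at 7.17 and 11.0 FPKM (log2 ratio 0.62). Downward was *Prph*, at 1.57 and 0.86 FPKM (log2 ratio −0.80), with overlapping intervals.

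Reactivity genes beyond the 4 members gave unlike counts by list. Pan-reactive genes, which are induced by many kinds of injury, had a median of 0.16 over 10 genes. Past a fold of 1.5 were 3 upward and 2 downward, beside 15.4% and 8.52% of all genes. *Cxcl10*, an interferon-induced chemokine, was at 13.6 and 28.7 FPKM (log2 ratio 1.08), *Hspb1*, a small heat shock protein, at 41.9 and 71.8 FPKM (log2 ratio 0.78) and *Timp1*, a protease inhibitor, at 11.3 and 18.6 FPKM (log2 ratio 0.71). In contrast, *Aspg* was at 31.2 and 13.98 FPKM (log2 ratio −1.15) and *Cd44*, the hyaluronan receptor, at 13.9 and 8.33 FPKM (log2 ratio −0.73).

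The so-called A1 genes, known from astrocytes of mice given bacterial endotoxin, had a median of 0.70 over 12 genes. Past the fold were 6 upward and 0 downward, beside 15.4% and 8.52% of all genes. The highest were *H2-T23*, an MHC class I gene, at 17.6 and 43.1 FPKM (log2 ratio 1.29), *Iigp1*, an interferon-induced GTPase, at 2.32 and 5.31 FPKM (log2 ratio 1.16), and *Fkbp5*, a chaperone gene induced by glucocorticoids, at 10.6 and 22.4 FPKM (log2 ratio 1.07). Many of these genes are also used by microglia, endothelium and fibroblasts. The A2 genes, known from ischaemia, had a median of 0.24 over 9 genes, with 3 past the fold upward and 0 downward, among them *Sphk1*, a sphingosine kinase, at 10.8 and 24.7 FPKM (log2 ratio 1.18) and *S100a10* at 111.1 and 194.6 FPKM (log2 ratio 0.81).

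Genes of the pathways known to drive *Gfap*, *Serpina3n* and *Lcn2* were compared next. Of the JAK-STAT3 genes, 0 of 11 were past a fold of 1.5, beside 23.9% of all genes, with a median of 0.19. The ligand genes *Il6*, *Lif* and *Osm* were under 1 FPKM in both libraries and are not in this count. *Stat3*, the transcription factor of the pathway, was at 46.6 and 44.0 FPKM with overlapping intervals. The leukaemia inhibitory factor receptor *Lifr* had the highest ratio, at 4.93 and 7.33 FPKM (log2 ratio 0.56). Of the interleukin-1 and NF-kB genes, 0 of 9 were past that fold, with a median of 0.13, again without the ligand genes under 1 FPKM, *Il1a*, *Il1b* and *Tnf*. *Il1b* was at 0.23 FPKM in control nerve and 0.62 in mutant nerve (log2 ratio 1.15), with overlapping intervals, and with named rows rescaled 1 of 11 genes of this list was past the fold upward. *Nfkbia*, an inhibitor and target of NF-kB, was at 17.5 and 22.6 FPKM (log2 ratio 0.37). Of the proteins related to lipocalin-2 by family or receptor, *Ptgds*, a lipocalin that meningeal cells and OLs make, was at 6009 and 12780 FPKM (log2 ratio 1.09), and the receptor gene *Slc22a17* was at 189.6 and 180.8 FPKM.

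**Figure D3:**
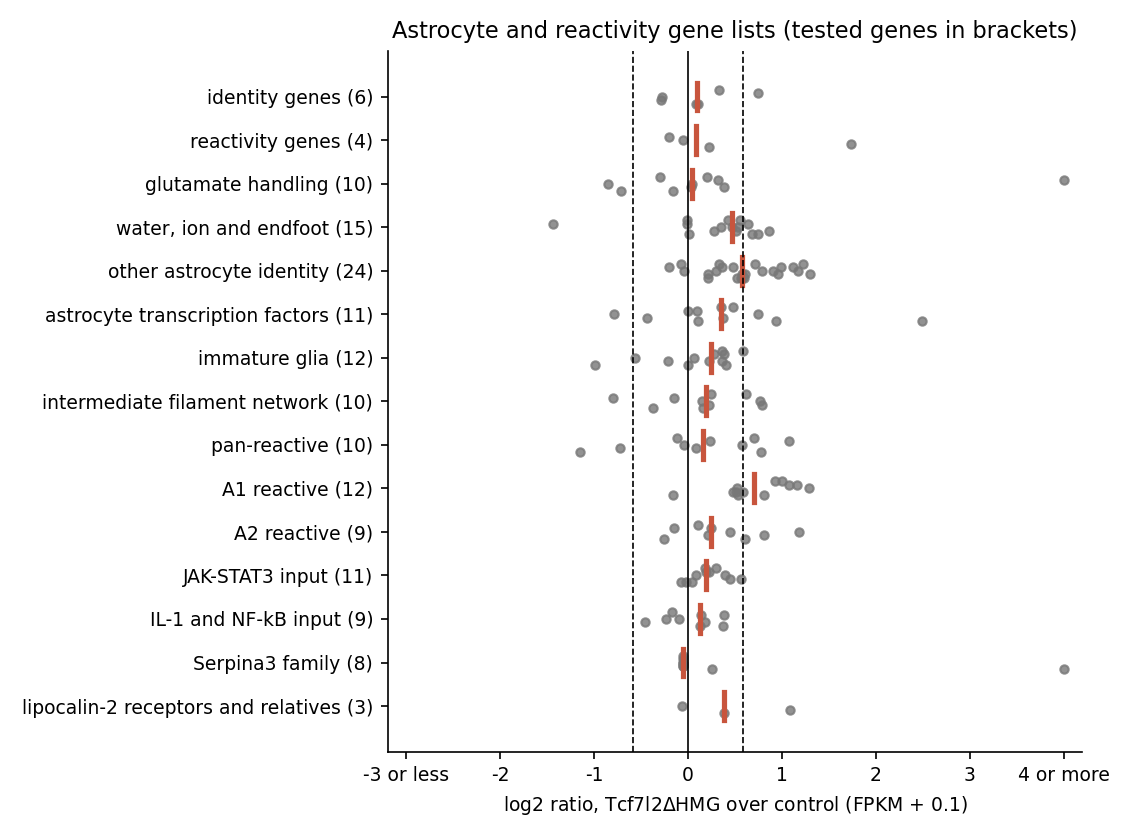
Log2 ratios of *Tcf7l2*ΔHMG over control FPKM (plus 0.1) for each gene compared (grey points) in the 2 member groups and 13 further lists, with red bars for list medians and dashed lines at a fold of 1.5; values past 4 are drawn at 4. The general identity and A1 lists have the highest medians, 0.57 and 0.70, while the members' medians are 0.09 and 0.08; the *Serpina3* point at 4 is *Serpina3j*, which is named on different rows in each library.

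The list values moved with the scale. When all rows, named and unnamed, were rescaled to a common sum, the median of all genes shifted by −0.68 on the log2 scale. The median of each member group and each further astrocyte or reactivity list turned or stayed negative. Of the general identity genes, 1 was then past a fold of 1.5 upward and 3 downward, beside 485 and 7182 of all 13208 genes compared. Relative to all genes the general identity list was still 0.53 higher and the A1 list 0.54 higher. With named rows only, the shift was −0.06. Of the members, *Glul* and *Lcn2* stayed higher in the mutant and *Aqp4*, *Fabp7*, *Vim* and the *Serpina3n* row stayed lower under every scaling, whereas *Gfap*, *Slc1a2*, *Slc1a3* and *Aldh1l1* turned lower when all rows were rescaled.

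Markers of other cell types moved as well, in both directions. All 9 markers of myelinating OLs were lower in the mutant, with a median log2 ratio of −1.10. Of them, 8 were past a fold of 1.5, beside 8.52% of all genes downward. Their summed level was 14974 FPKM in control nerve and 6614 in mutant nerve. OPC markers had a median of −0.27 over 6 genes, 1 higher and 5 lower, and their sum was 489.1 FPKM in control nerve and 340.2 in mutant nerve. Most of this sum was *Gpr17*, at 235.0 and 155.8 FPKM, and *Sox10*, at 144.0 and 76.6 FPKM. These were the 2 past a fold of 1.5 downward, beside 8.52% of all genes. The paper describes *Sox10* as maintained throughout the OL lineage. *Pdgfra* was at 35.9 and 33.6 FPKM with overlapping intervals, and *C1ql1* was higher, at 27.2 and 34.6 FPKM. Endothelial markers had a median of −0.42 over 10 genes, with sums of 194.0 and 154.9 FPKM. Microglial markers had a median of 0.37 over 12 genes, with sums of 395.1 and 525.8 FPKM. Meningeal fibroblast markers had a median of 0.58 over 10 genes, with sums of 2131 and 3420 FPKM. Past the fold upward were 1 microglial and 5 meningeal markers, beside 15.4% of all genes. Pericyte and smooth muscle markers had a median of 0.21 over 9 genes and sums of 272.4 and 387.0 FPKM, with *Tagln* listed at 0 in the control. Markers of neurons, low in both libraries, had a median of 0.79 over 11 genes and sums of 80.3 and 120.8 FPKM. *Tagln* and the neuron gene *Rbfox3*, at 0.66 and 1.51 FPKM, reached 1 FPKM in mutant nerve alone. Apart from *Tagln* and the 3 neutrophil genes named above, no marker of any of these lists was at 0 in either library. The part of each cell type in the values of *Glul*, *Vim*, *Fabp7*, *Serpina3n*, *Lcn2*, the further astrocyte genes and the A1 genes was not tested.

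**Figure D4:**
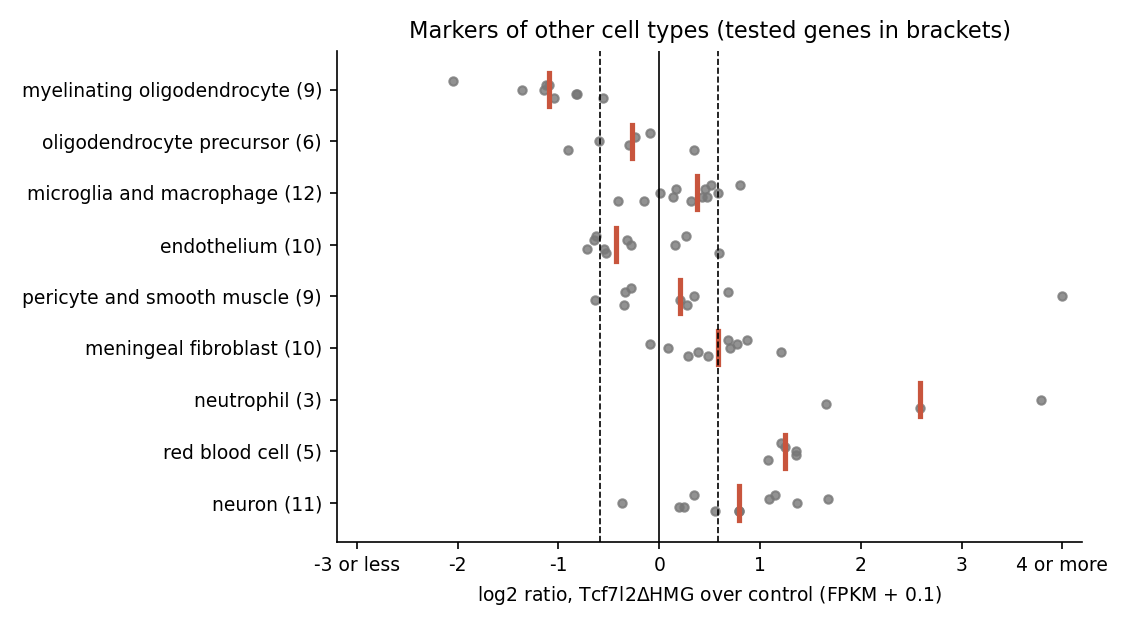
Log2 ratios of *Tcf7l2*ΔHMG over control FPKM (plus 0.1) for markers of other cell types (grey points) with red bars for the median of each list and dashed lines at a fold of 1.5; values past 4 are drawn at 4. Markers of myelinating OLs lie to the left, with a median of −1.10, and those of neutrophils and red blood cells to the right. *S100a9*, *Ngp*, the red blood cell gene *Alas2*, *Tagln* and the neuron gene *Rbfox3* passed the filter on low values through the mutant library alone.

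In the files, which follow mm9, the rows of the members other than *Serpina3n* lie on chromosome 1 (*Glul*, 155747056 to 155756853), chromosome 2 (*Slc1a2*, 102498840 to 102630941; *Vim*, 13495938 to 13504453; *Lcn2*, 32240157 to 32243259), chromosome 15 (*Slc1a3*, 8584124 to 8660807 in the control), chromosome 6 (*Aldh1l1*, 90500798 to 90549427 in the control), chromosome 10 (*Fabp7*, 57504729 to 57508256), chromosome 11 (*Gfap*, 102748650 to 102758514) and chromosome 18 (*Aqp4*). The coordinates of each row span a locus from end to end, introns included. The *Glul* row also carries *Mir8114*, and the ends of the *Slc1a3*, *Aldh1l1* and *Aqp4* rows differ between libraries. Unnamed rows within 5 kb of a member reached at most 3.02 FPKM, beside *Aldh1l1* in the control, so little signal lay in such neighbouring rows.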

How the data were processed

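RNA was isolated from optic nerves at P12 and sequenced, with 1 control and 1 *Tcf7l2*ΔHMG library. Reads were mapped with TopHat at default settings and the authors computed FPKM with Cufflinks, which also gave the interval and status deposited for each row. The submitters' processing notes name mm9 and give no tool versions. Rows come from an assembly made per library, so their extent and merged names can differ between libraries. Here, merged names were split, each taking the FPKM of its row, and rows of 1 symbol were summed. Symbols whose rows had status OK in each of the libraries and that reached 1 FPKM in either library were compared as log2 ratios with a pseudocount of 0.1 FPKM, and a fold above 1.5, the study's cutoff, was counted. No test was possible with 1 library per genotype.

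Depth was taken as the smallest at which at least 99% of interval bounds of unnamed rows under 100 bases were whole fragments within 0.02. The members and lists were chosen with earlier results of these data known. The text names all members, genes among the 3 highest and 3 lowest ratios of each further list, and markers at 0 in a library. A second group was singled out after its values were seen. It holds the 5 astrocyte markers that are not members, the ligand genes under 1 FPKM, the OPC markers named, and *S100a9*, *Ngp*, *Alas2* and *Rbfox3*. Some list genes are counted but not reported here by name. Alternatives were 2 other pseudocounts, 3 filters, 4 scalings, other rules for rows, a fold of 2 and, added after seeing the data, interval midpoints. Scripts were tested on simulated data. Python 3.11.15, numpy 2.4.6, pandas 2.3.3 and matplotlib 3.10.9 were used. Promoter sequences are from RefSeq.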

Additional observations from a re-analysis of the deposited data

How the results depend on the processing

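The medians of identity genes and reactivity genes were 0.09 and 0.08 on the log2 scale. Bringing all rows of a library to 1000000 FPKM in sum gave −0.58 and −0.59. The members past a fold of 1.5 then went from 2 of 10 to 6 of 10. Of these 6, 1 reactivity gene was higher, and 3 identity genes and 2 reactivity genes were lower. Over all genes this rescaling changed those past that fold from 3395 of 14199 (2185 higher and 1210 lower) to 7667 of 13208 (485 higher and 7182 lower). It also turned *Hopx* to −0.084, *Synm* to −0.048 and *Ptx3* to −0.041. Rescaling named rows alone moved the identity median to 0.023. Where genes had to reach 5 FPKM, 2179 genes were past the fold (1290 higher) and 1 member, since *Lcn2* was no longer compared. Without merged rows 1 member was past it, since *Glul* was no longer compared. A fold above 2 left 1497 genes (975 higher and 522 lower) and 1 member, *Lcn2*. Interval midpoints, chosen after seeing the data, gave a reactivity median of 0.88, a difference between the groups of 0.78 and 4 members past the fold, through the upper bound of the mutant *Serpina3n* row and the mutant interval of *Fabp7*. Under the other alternatives the difference between the groups lay between −0.15 and 0.14, *Gfap* between 0.15 and 0.23, *Glul* between 0.67 and 0.75, and *Lcn2*, where compared, between 1.29 and 1.79. No spread between animals can be estimated, the depth of the control was the lower, and at 1.39 FPKM *Lcn2* is the member that counting error limits most.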

Other observations

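The split of merged names gave *Serpina3j* the largest ratio of its family, 8.26 on the log2 scale. It had its own row of 0.65 FPKM in the control, while in the mutant it was one of the names on the joint row of 229.0 FPKM.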
